A study of Mus musculus with 12 samples.

Results

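The aquaporins are membrane channels for water and, in some members, for glycerol and other small solutes. They were examined in side population cells, rare cells that pump out the dye Hoechst and are sorted by their low staining. The cells came from extraocular muscle (EOM, the muscles that move the eye, 6 arrays) and, for comparison, from tibialis anterior (TA, a hind limb muscle, 6 arrays). Aqp1, Aqp3, Aqp4, Aqp5, Aqp7, Aqp8, Aqp9 and Aqp11 were the 8 genes chosen, by name, and every probe set that the platform annotation gave to 1 of them alone was kept, whatever its signal. This gave 17 of 45037 probe sets, and 8 of 18193 named genes. Each array carried RNA of 1 separately isolated mouse preparation, amplified in a double round before labelling. Strain, sex, age and the number of animals in a preparation were not given in the sources used here, and side population cells of a muscle are a mixture of cell types. In such bulk samples, fewer cells of a type and less RNA per cell cannot be told apart.

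Aquaporins sit in the membrane as tetramers, and each subunit has a pore of its own. Aqp1, Aqp4, Aqp5 and Aqp8 are water channels, although Aqp8 also passes ammonia and hydrogen peroxide. Aqp3, Aqp7 and Aqp9 are aquaglyceroporins, which pass glycerol as well as water. Aqp11 is an unorthodox member of intracellular membranes. In skeletal muscle Aqp1 is known from the endothelium of capillaries, and Aqp4 from the membrane of fast fibres, where the dystrophin complex anchors it. Aqp7 is known from adipocytes and capillary endothelium, Aqp9 from liver and leukocytes, Aqp3 and Aqp5 from epithelia and glands. Red blood cells also carry Aqp1.

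Promoter sequences are shown for 3 members: Aqp1 and Aqp7, which differed between the muscles, and Aqp3, which follows Aqp7 as the next coding gene on chromosome 4 and did not pass the test. Each is the run of 250 bases before the annotated start of transcription, from RefSeq (GRCm38.p6), written along the gene's own strand. The windows are chr6:55336049-55336298 on the plus strand for Aqp1, chr4:41047963-41048212 on the minus strand for Aqp7, and chr4:41098184-41098433 on the minus strand for Aqp3. Capitals mark matches on either strand to CACCC (a core of sites of Krüppel-like factors), GGAAG (an ETS factor core), AGATAA (read by zinc finger factors of the GATA family), TGGAAA (read by NFAT factors, among them the tonicity factor Nfat5), AGGTCA (a nuclear receptor core) and TATAAA.
Aqp1: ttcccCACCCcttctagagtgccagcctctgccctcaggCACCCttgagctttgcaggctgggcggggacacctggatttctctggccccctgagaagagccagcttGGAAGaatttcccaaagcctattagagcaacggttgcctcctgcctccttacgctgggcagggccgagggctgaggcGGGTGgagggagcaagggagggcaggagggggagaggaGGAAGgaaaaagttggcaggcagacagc
Aqp7: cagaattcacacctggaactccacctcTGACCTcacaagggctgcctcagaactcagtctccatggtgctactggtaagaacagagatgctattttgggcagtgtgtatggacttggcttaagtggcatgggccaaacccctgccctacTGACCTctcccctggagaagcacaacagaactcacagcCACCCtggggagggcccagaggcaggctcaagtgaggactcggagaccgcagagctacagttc
Aqp3: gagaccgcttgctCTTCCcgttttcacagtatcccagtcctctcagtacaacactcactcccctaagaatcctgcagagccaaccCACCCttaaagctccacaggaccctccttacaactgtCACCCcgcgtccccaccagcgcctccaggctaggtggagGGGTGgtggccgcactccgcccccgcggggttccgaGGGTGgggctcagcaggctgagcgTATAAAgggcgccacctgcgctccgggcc
The Aqp1 window held 3 CACCC and 2 GGAAG matches and none of the other letters searched. The Aqp7 window held 2 matches to AGGTCA and 1 to CACCC. The window of the second annotated Aqp7 start, chr4:41048137-41048386, had 1 match to AGGTCA, another to the letters AGATAA and another to the letters TGGAAA. It shares bases with the first Aqp7 window, and its AGGTCA match is the same site as 1 of the 2 counted there. The Aqp3 window held 4 CACCC, 1 GGAAG and 1 TATAAA match. Among 32851 promoter windows of the same length, 52% held CACCC, 64.1% GGAAG, 9.99% AGATAA, 18.6% TGGAAA, 14% AGGTCA and 12.4% TATAAA. No pair of these motifs overlapped in the windows printed. A match is a run of letters, and no binding was measured here. Windows were found for 7 of the 8 members.

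On 3 arrays the median signal stood apart, with 87.2 in the EOM 1 array, 69.5 in TA 3 and 63.1 in TA 5, where the other 9 lay between 31.1 and 43.4. These 3 arrays also held the highest value of 14 of the 17 aquaporin probe sets, and the Aqp1, Aqp7 and Aqp9 results and the counts of the endothelial, pericyte, glycerol and fibroblast lists are therefore also given without them. Array signals carry no counts, so the number of arrays limits the precision. The ratio of the 3' to the 5' Gapdh control signal ranged from 4.92 on TA 6 to 34.5 on TA 5. Its log2 value was also tried as a covariate. Abcg2, the transporter that exports Hoechst, was measured at 650 ± 322 in EOM, against 2668 ± 728 in TA (SD over 6 arrays a group), with a log2 fold change of -2.23 (adjusted p = 0.00157), and lay above the array median on all 12 arrays.

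Of the 17 aquaporin probe sets, 3 (17.6%) were lower in EOM than in TA (limma, adjusted p under 0.05) and 0 were higher, also at an unadjusted p under 0.05. They belonged to Aqp1, Aqp7 and Aqp9. Over all probe sets 2.6% were called lower, 1.6% higher and 4.2% in either direction. The median log2 fold change (EOM minus TA, on the scale of log2(signal + 16)) was -0.08 over the aquaporin probe sets and -0.03 over all probe sets. Among the aquaporins the groups did not overlap for 2 probe sets, those of Aqp1 and Aqp7, both lower in EOM. Of all probe sets 3.39% did not overlap, and 2.2% did so with EOM lower. Without EOM 1 there were 4 lower aquaporin probe sets, against 1939 lower and 1847 higher of all probe sets in place of 1172 and 719. Without EOM 1, TA 3 and TA 5 together there were 3, against 2249 lower and 2017 higher.

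**Figure D1:**
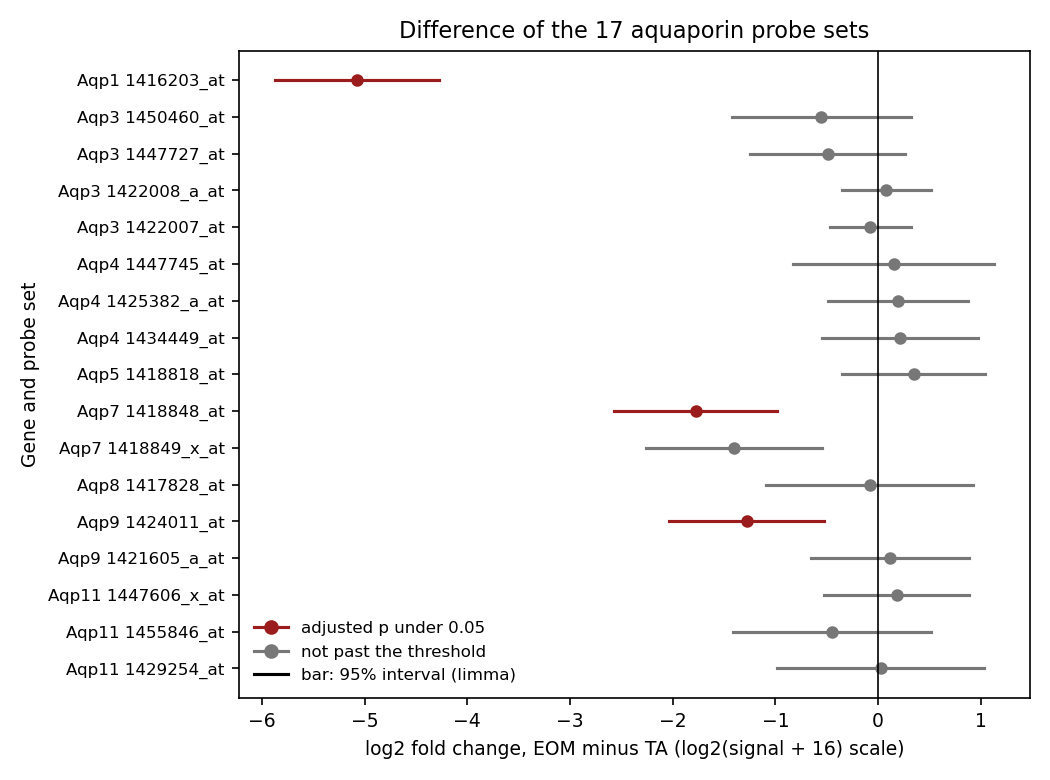
Log2 fold change, EOM minus TA, of each of the 17 aquaporin probe sets (points) with its 95% interval from limma (bars), on the log2(signal + 16) scale. Red marks the 3 probe sets past the threshold, of Aqp1 (-5.07), Aqp7 (-1.78) and Aqp9 (-1.28), and each grey interval reaches across 0 except that of the other Aqp7 probe set, at -1.40.

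Aqp1, the water channel of capillary endothelium, was bright in TA and far lower in EOM. Its signal was between 109.5 and 507 in the 6 EOM preparations, with a median of 297. In the 6 TA preparations it was between 4293 and 16357, with a median of 11091. The lowest TA array was thus 8.46 times the highest EOM array, and the means, 292 ± 156 in EOM, against 10074 ± 4542 in TA (SD over 6 arrays a group), differed 34.5-fold. The log2 fold change was -5.07 ± 0.38 (SE, limma adjusted p = 6.75e-08), and 3 of 45037 probe sets had a lower one. Without EOM 1, TA 3 and TA 5 it was -5.08 (adjusted p = 2.01e-08). Aqp1 was still above the array median on all 6 EOM arrays. Within EOM its values were lowest on EOM 1 and EOM 0 and highest on EOM 2, a 4.63-fold range, and within TA the range was 3.81-fold, with TA 3 and TA 2 lowest.

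**Figure D2:**
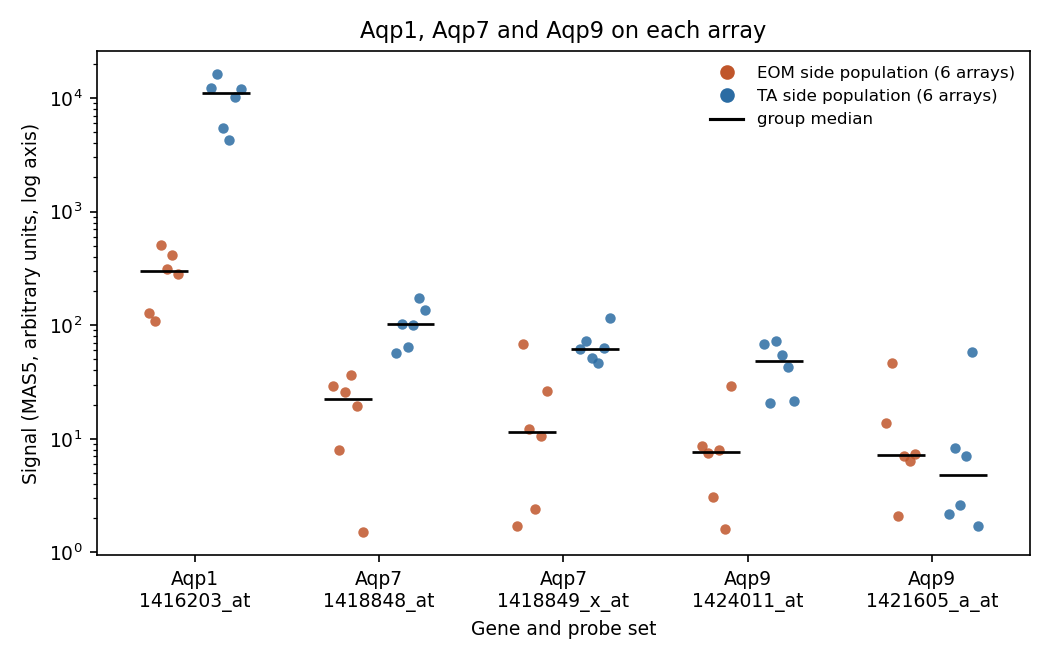
Signal of the Aqp1, Aqp7 and Aqp9 probe sets on each of the 12 arrays (points, log axis), with EOM left of TA and the group medians as lines. The 6 EOM arrays sit below all 6 TA arrays for Aqp1 and for Aqp7 1418848_at, while the Aqp9 groups overlap in both probe sets.

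Most markers of endothelium, and most of pericytes and smooth muscle, were also lower in EOM. Of 20 endothelial markers 17 were lower in EOM and 0 higher (0 also at an unadjusted p under 0.05), with a median log2 fold change of -3.29. With EOM 1, TA 3 and TA 5 left out, 19 were lower. Their summed signal was 2612 to 4419.5 in EOM and 19068 to 42741 in TA. That sum includes bright members such as Tek (mean 722 in EOM) and Eng (629), and does not show that each marker was measured. In EOM 5 of the 20 had a mean under the mean array median. Of these, Tie1 exceeded the array median on 0 EOM arrays, and Pecam1, Erg and Icam2 on 2 each. Among the lower markers was the secreted vascular factor Egfl7, at 106 ± 53.9 in EOM, against 3590 ± 2415 in TA (SD over 6 arrays a group, log2 fold change -4.75). Others were the surface lectin-like receptor Cd93 (-4.10) and the adhesion molecule Icam2 (-4.04). Tek, the angiopoietin receptor, was at -0.18 (adjusted p = 0.939). Pericytes and smooth muscle were read from 12 markers, of which 8 were lower and 0 higher, also at an unadjusted p under 0.05, with a median of -2.07 and sums of 6199 to 10814 in EOM and 20629 to 34681 in TA. Without the same 3 arrays 9 were lower. They were led by smooth muscle myosin Myh11 (-4.03), the pericyte regulator Rgs5 (-3.96) and smooth muscle actin Acta2 (-3.85). Among those that did not pass, Pdgfrb was at -0.51 (adjusted p = 0.642) and Abcc9 at 0.94 (adjusted p = 0.409). The part of either cell type in the Aqp1 result was not tested.

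Aqp1 was also set against the mean of each marker list on the same array, a comparison made with the value of Aqp1 already known. None of the 20 markers had a fold change below that of Aqp1, nor did any of the 12 pericyte and smooth muscle markers. On the log2 scale the mean of the endothelial markers had a difference of -3.05 (EOM minus TA), and Aqp1 minus that mean was 1.18 ± 0.77 in EOM, against 3.21 ± 0.32 in TA (SD over 6 arrays a group). The further difference was -2.02, lower in all 6 EOM arrays than in any TA array (exact permutation test, two-sided, p = 0.00216, the smallest that 924 splits can give, with the same value after adjustment over both lists). It was -1.81 without EOM 1, TA 3 and TA 5 (exact permutation p = 0.00794). The comparison is with the mean of the list, which includes markers that did not pass, and it does not set Aqp1 apart from single markers. The 95% interval of the Aqp1 fold change was -5.87 to -4.27, and that of Egfl7, -5.55 to -3.96, overlapped it. Against the pericyte and smooth muscle markers, Aqp1 was at 0.35 ± 0.99 in EOM and 3.44 ± 0.52 in TA, a difference of -3.08 (SD, n = 6, exact permutation p = 0.00216), or -2.76 without EOM 1, TA 3 and TA 5. In EOM 5 of the 20 endothelial markers had a mean signal under the mean array median, where an added constant shrinks a fold change, while Aqp1 did not. With an added constant of 1 in place of 16 the further difference against the endothelial list was -1.84.

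**Figure D3:**
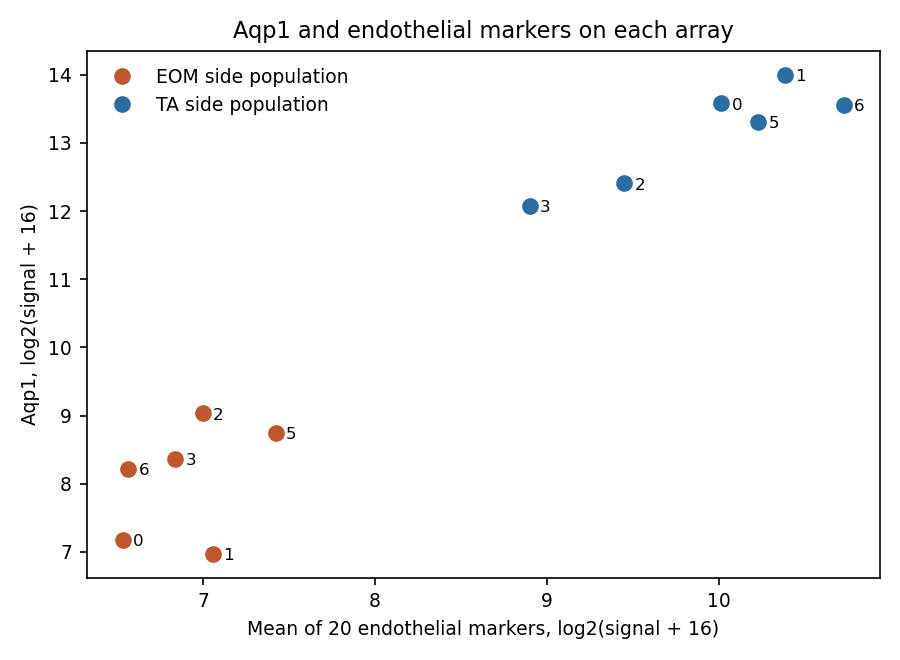
Aqp1 against the mean of 20 endothelial markers on each array, both as log2(signal + 16), with the replicate number beside each point. The EOM arrays lie at the lower left and the TA arrays at the upper right, with no overlap on either axis.

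Red blood cells carry Aqp1 as well, and their markers were dim in both muscles. Of 7 erythroid markers measured, 0 were lower and 0 higher (limma, 0 also at an unadjusted p under 0.05), with a median log2 fold change of 0.07. Their summed signal was 70.7 to 521 in EOM and 59.9 to 214 in TA. All 7 had an EOM mean under the mean array median. The alpha globin Hba-a1 was at 35.4 ± 55.1 in EOM, against 27.7 ± 35 in TA (SD over 6 arrays a group).

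The 6 genes nearest to Aqp1 in pattern over the 12 arrays were taken from 13091 genes by the root-mean-square difference of centred log2 values. This measure includes the difference between the muscles, so genes near Aqp1 had to be lower in EOM. The nearest was the fatty acid transporter Cd36, at a difference of 0.55, with 129 ± 82.5 in EOM, against 3603 ± 1863 in TA (SD over 6 arrays a group). Next came the caveolar protein Cav2 (0.64), the lipoprotein lipase anchor Gpihbp1 (0.67), Icam2 (0.71), Cd93 (0.75) and Tcim (0.75). These are distances, and they carry no test.

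Aqp7, the aquaglyceroporin of adipocytes and capillaries, was lower in EOM by its brighter probe set, 1418848_at. The EOM arrays had a lowest signal of 1.5, a median of 22.6 and a highest of 36.1, and the TA arrays a lowest of 56.6, a median of 102 and a highest of 174. Every EOM array was below every TA array. The log2 fold change was -1.78 ± 0.38 (SE, adjusted p = 0.00695), and the means, 20.0 ± 13.1 in EOM, against 105.9 ± 44.2 in TA (SD over 6 arrays a group), differed 5.31-fold. It exceeded the array median on 1 EOM array and on all 6 TA arrays. Without EOM 1, TA 3 and TA 5 it was at -1.49 (adjusted p = 0.0132).

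The second Aqp7 probe set, 1418849_x_at, had lower EOM values too but did not pass. It was at 1.70 to 68.5 in EOM (median 11.4) and at 46.1 to 114.8 in TA (median 62.3). The groups overlapped through EOM 1 alone, at 68.5, while the other 5 EOM arrays were at 26.6 or below. The log2 fold change was -1.40 ± 0.41 (SE, adjusted p = 0.0601), and without EOM 1 it was -1.69 (adjusted p = 0.00315). Leaving out EOM 1, TA 3 and TA 5 gave -1.80 (adjusted p = 0.00215). The suffix x in its name marks a probe set with probes that may match other transcripts.

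Genes of glycerol and triglyceride release, uptake and synthesis were lower in EOM only in part, and glycerol kinase, Gk, was not measured. Of 17 measured, 5 were lower and 0 higher, or 8 and 1 at an unadjusted p under 0.05, and the median log2 fold change was -0.53. Without EOM 1, TA 3 and TA 5, 6 were lower and 2 higher. Those with the largest change were Cd36 (-4.59), Gpihbp1 (-4.44), the monoglyceride lipase Mgll (-2.48, 265 ± 94.1 in EOM and 1746 ± 1090 in TA, SD, n = 6) and the fatty acid carrier Fabp4 (-2.28). Lipoprotein lipase, Lpl, was the other called member. Among those that did not pass were the glycerol-3-phosphate dehydrogenases Gpd1 (-0.11, adjusted p = 0.964) and Gpd2 (0.42, adjusted p = 0.820) and the triglyceride lipase Pnpla2 (-0.70, adjusted p = 0.185). Of 5 adipocyte markers 1 was lower and 0 higher (0 also at an unadjusted p under 0.05). The lower one was Pparg, the nuclear receptor known to drive Aqp7 in mouse adipocytes, at 12.2 ± 14.5 in EOM, against 186 ± 82.2 in TA (SD over 6 arrays a group, log2 fold change -2.86, adjusted p = 5.47e-05). Any part of Pparg in the Aqp7 result was not tested. The fat cell hormone Adipoq was dim in both, at 17.6 ± 9.28 in EOM, against 20.6 ± 16.4 in TA (SD over 6 arrays a group).

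The genes nearest to Aqp7 1418848_at in pattern were Ccdc85b, at a root-mean-square difference of 0.29, Dennd3 (0.34), the haematopoietic actin regulator Hcls1 (0.37), the junction scaffold Magi1 (0.38), Cpxm2 (0.39) and Endou (0.42). By the same measure these had to be lower in EOM, and their log2 fold changes, between -2.37 for Magi1 and -1.39 for Ccdc85b, describe the choice.

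Aqp9, the glycerol and water channel of liver and leukocytes, gave a call that depended on the processing. Its probe set 1424011_at was at 1.6 to 29 in EOM (median 7.70) and at 20.7 to 71.9 in TA (median 48.7). The groups overlapped because EOM 6, at 29.0, lay above TA 1 and TA 6. The log2 fold change was -1.28 ± 0.36 (SE, adjusted p = 0.0494). The call was kept in 7 of 22 alternatives. Among the leave-one-out fits the adjusted p lay between 0.0312 and 0.142, and leaving out any of EOM 0, EOM 2, EOM 3, EOM 5, TA 0, TA 2, TA 3 or TA 5 ended it, with fold changes of -1.28 to -1.16. With the replicate number as a fixed block the adjusted p was 0.139, with it as a random block 0.0648, and without EOM 1, TA 3 and TA 5 it was 0.0535. Adding the Gapdh ratio as a covariate gave an adjusted p of 0.0720. The signal exceeded the array median on 0 EOM arrays and 2 TA arrays.

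The other Aqp9 probe set, 1421605_a_at, did not pass. It had medians of 7.15 in EOM and 4.80 in TA, a log2 fold change of 0.12 and an adjusted p of 0.955. Of 12 leukocyte markers measured, 7 were lower in EOM and 0 higher (0 also at an unadjusted p under 0.05), with a median of -2.24. Their summed signal was 404 to 3879 in EOM and 1951 to 10994 in TA. They were led by the protease Ctss (-3.47), the adaptor Tyrobp (-2.90) and the phosphatase Ptprc (-2.63), and the part of leukocytes in the Aqp9 signal was not tested. The nearest genes in pattern to 1424011_at were the lymphoid factor Ikzf3 (0.38), the junction protein Jup (0.41), Micu3 (0.42), Tns1 (0.44), Ccnt1 (0.45) and Prr13 (0.45).

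Aqp3, the aquaglyceroporin of epithelia, was dim in both muscles. Its brightest probe set, 1450460_at, was at 2.30 to 62.6 in EOM (median 24.7) and at 21.6 to 77.9 in TA (median 33.6). The groups overlapped widely, and EOM 1, TA 3 and TA 5 held the high values of their groups. The log2 fold change was -0.55, with a 95% interval of -1.42 to 0.32 (adjusted p = 0.676). The other 3 probe sets stayed under the array median on every array, at 0.70 to 65.5, with fold changes between -0.49 and 0.08. Of 11 epithelial and gland markers 0 passed (limma, 1 lower and 0 higher at an unadjusted p under 0.05), with summed signals of 315 to 968 in EOM and 345 to 862 in TA. Aqp3, the next coding gene after Aqp7 on the chromosome, was thus not called where Aqp7 was, but the difference between the 2 genes was not tested.

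**Figure D4:**
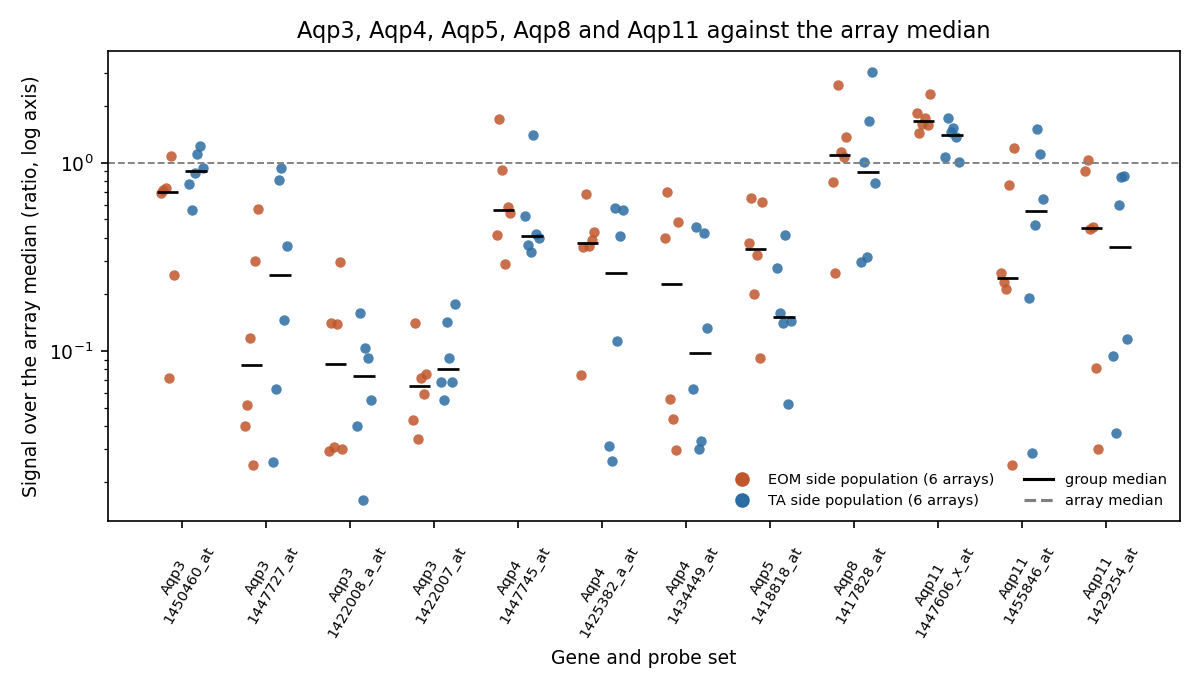
Signal divided by the median signal of the same array (log axis) for the 12 probe sets of Aqp3, Aqp4, Aqp5, Aqp8 and Aqp11, with EOM left of TA, group medians as lines and the array median as a dashed line at 1. Only Aqp11 1447606_x_at lies above the dashed line on all 12 arrays, and the groups overlap in every probe set shown.

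Aqp4, the main water channel of fast muscle fibres, was not called by any of its 3 probe sets. The brightest, 1447745_at, was at 9.30 to 148.8 in EOM (median 20.8) and at 12.4 to 97.7 in TA (median 16.4). EOM 1 and TA 3 carried the high values, and the other 5 EOM arrays were at 29.5 or below. It differed by 0.15 (log2), with a 95% interval of -0.83 to 1.13 (adjusted p = 0.954), and without EOM 1 it was -0.23. The other 2 probe sets, 1425382_a_at (0.20) and 1434449_at (0.22), were under the array median on all arrays. Each of the 3 intervals included 0.

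Of 8 genes that anchor Aqp4 at the membrane, 2 were lower in EOM and 0 higher (0 also at an unadjusted p under 0.05), with a median log2 fold change of -0.39. They were the syntrophin Sntb1, at 13.4 ± 7.84 in EOM, against 84.9 ± 39.1 in TA (SD over 6 arrays a group, -1.73, adjusted p = 0.00607), and utrophin, Utrn, at 808 ± 253 in EOM, against 2042 ± 254 in TA (SD over 6 arrays a group, -1.40, adjusted p = 0.00265). Dystrophin, Dmd, was at -0.05 (adjusted p = 0.981) and dystroglycan, Dag1, at 0.34 (adjusted p = 0.571). Muscle fibre markers gave 1 lower and 0 higher of 11 (2 lower and 0 higher at an unadjusted p under 0.05). The lower one was skeletal actin Acta1 (-1.66, adjusted p = 0.0465). Of these 11, 8 had an EOM mean under the mean array median.

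Aqp5, the water channel of lacrimal and salivary glands, had 1 probe set, 1418818_at, which was under the array median on all 12 arrays. It was at 3.70 to 56.5 in EOM (median 12.2) and at 3.30 to 28.6 in TA (median 6.10). EOM 1 and TA 3 were the high arrays of their groups. On the log2 scale the fold change was 0.34, with a 95% interval of -0.35 to 1.04 (adjusted p = 0.779).

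Aqp8, a water and peroxide channel, was measured by 1417828_at at 22.6 to 83.4 in EOM (median 40) and at 10.4 to 191.5 in TA (median 31.5). TA 3 and TA 5, at 115.7 and 191.5, were the only TA arrays above the highest EOM array. It exceeded the array median on 4 EOM arrays and 3 TA arrays. On the log2 scale the fold change was -0.08, with a 95% interval of -1.09 to 0.93 (adjusted p = 0.979). Without EOM 1, TA 3 and TA 5 it was 0.76 (adjusted p = 0.219). Its sign also turned with all 12 arrays kept, under 4 other settings, so no direction was settled.

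Aqp11 was the member with a signal above the array median on all 12 arrays besides Aqp1, by its probe set 1447606_x_at. This was at 51.8 to 126.3 in EOM (median 66.6) and at 31.4 to 106.2 in TA (median 65.0). EOM minus TA was 0.18 on the log2 scale, with a 95% interval of -0.52 to 0.88 (adjusted p = 0.915), and EOM 1 and TA 3 again held the highest values. As an x probe set it may include other transcripts. Its other 2 probe sets were dimmer and spread more, 1455846_at at medians of 15.0 in EOM and 20.2 in TA (-0.45) and 1429254_at at 14.5 in EOM and 14.8 in TA (0.03). Loss of Aqp11 in mice is known to give cystic kidneys, which is background and was not examined here.

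The remaining family members on the array, the lens channel Mip and Aqp2, Aqp6 and Aqp12, of kidney and pancreas, had 8 probe sets, of which 0 passed (limma, 0 also at an unadjusted p under 0.05). Their log2 fold changes lay between -0.57 and 0.55, and the lowest adjusted p was 0.576.

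Genes of cell volume control and ion transport, which set the gradients that water follows, went both ways. Of 16 measured, 4 were lower and 1 higher in EOM, with a median of 0.02, and 4 lower and 2 higher without EOM 1. The lower ones with the largest changes were the potassium-chloride cotransporter Slc12a7, at 155 ± 63.9 in EOM, against 928 ± 277 in TA (SD over 6 arrays a group, -2.54, adjusted p = 2.61e-05), the membrane carbonic anhydrase Car4 (-2.35, adjusted p = 0.00113) and the taurine transporter Slc6a6 (-1.30, adjusted p = 0.0180). The volume-regulated anion channel subunit Lrrc8a was at -1.14 (adjusted p = 0.0107). The sodium pump subunit Atp1b1 was higher, at 1233 ± 410 in EOM, against 222 ± 79.8 in TA (SD over 6 arrays a group, 2.40, adjusted p = 5.14e-05). The tonicity factor Nfat5 was at -0.02 (adjusted p = 0.992) and the cotransporter Slc12a2 at 0.22 (adjusted p = 0.810).

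Among the markers of other cells, 4 of 12 fibroblast genes were higher in EOM and 0 lower (0 also at an unadjusted p under 0.05), led by Pi16 (5.55), Dpt (1.90) and Clec3b (1.42). Without EOM 1, 7 were higher, and without EOM 1, TA 3 and TA 5, 6 were. Of 4 Schwann cell markers 0 passed (limma, 0 also at an unadjusted p under 0.05).

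**Figure D5:**
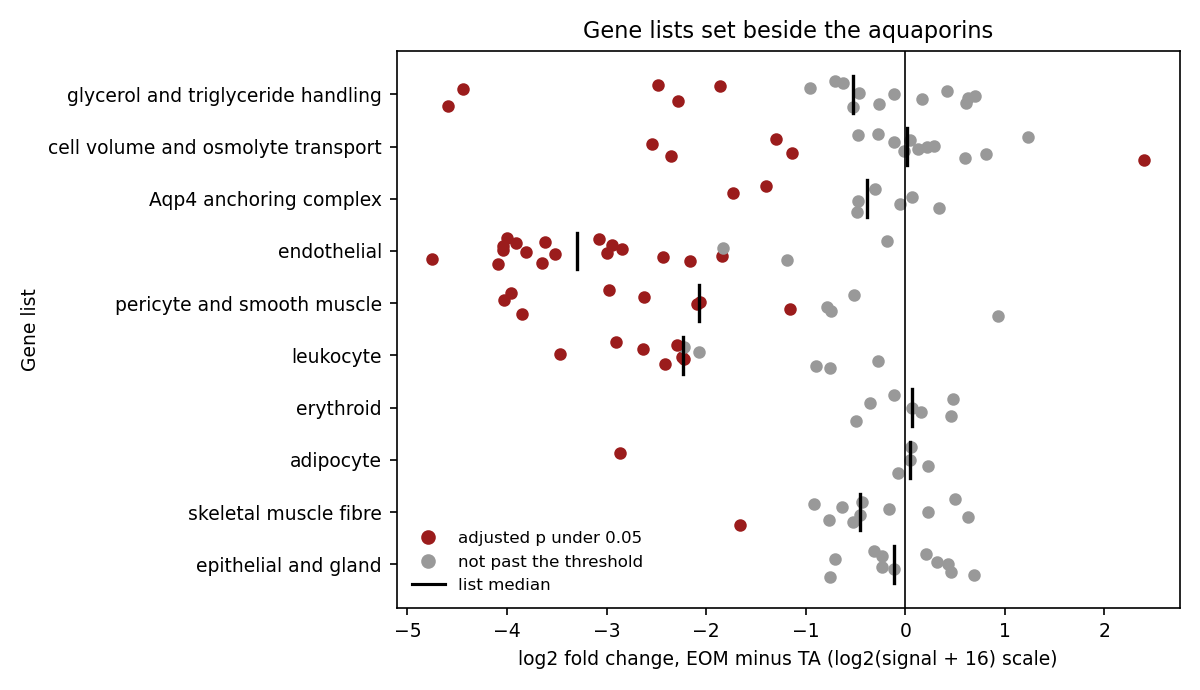
Log2 fold change, EOM minus TA, of the measured genes of 10 lists (points, red where past the threshold), with each list's median as a vertical line. The endothelial, pericyte and smooth muscle and leukocyte medians lie at -3.29, -2.07 and -2.24, and those of the erythroid and adipocyte lists at 0.07 and 0.05.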

How the data were processed

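RNA of 12 side population preparations (6 EOM, 6 TA) was measured on 12 mouse arrays. The authors deposited 1 table of linear signal intensity, summarized with MAS5 per the submitters' processing notes. The mean of every column, trimmed by 2% at each end, was 150.001, so the arrays share 1 scale. Detection calls were not used here. Groups and replicate numbers came from the sample titles, and 0 value columns were left unused.

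After removing 64 control probe sets, log2(signal + 16) of 45037 probe sets was fitted with limma 3.58.1 in R 4.3.3 (EOM minus TA, intensity trend, two-sided) with no level filter, as the rule for the members has none. p-values were adjusted by Benjamini-Hochberg over all probe sets, with a threshold of 0.05. The fit was also run on simulated data, with independent normal noise and changes planted only above the 40% point of mean signal. That run does not cover changes in dimmer probe sets, or deviations that many probe sets of an array share. Fold changes on the log2(signal + 16) scale understate changes of dim genes. Of the 17 aquaporin probe sets 7 lay above the 40% level filter tried as an alternative.

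Probe sets were named through the platform annotation (34945 with 1 symbol, 932 with several, 9160 with none). For each listed gene the probe set of highest mean signal was taken, matched by symbol or by gene identifier (GRCm38.p6, names only). The members, the 13 gene lists and the arrays left out together were chosen with earlier results of these data known. Named genes were every member, from each pathway list up to 4 and from each marker list up to 3 called genes with the largest change, and the 6 genes nearest in pattern to each called member. Further list members that did not pass, Lpl and Lrrc8a were named after their values were seen, as were the motifs searched.

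Both groups carry the replicate numbers 0, 1, 2, 3, 5 and 6. The correlation of deviations between same-numbered arrays was between -0.33 and 0.16. Only for EOM 0 was the TA array of the same number the best match. These few correlations cannot settle whether the samples were paired, so the number was also tried as a block. No 2 columns were identical. The preparations were isolated independently per the labels.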

Additional observations from a re-analysis of the deposited data

Results flagged for a closer look

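Within each group of 6 arrays, 34 in all, the highest or lowest value was set against the next (Dixon's criterion, critical value 0.625). For normally distributed values chance gives such a flag in about 1 in 20 groups. That rate cannot be applied here, since linear signals near the floor can be skewed and the groups share arrays. There were 13 flags, all of them highest values and 8 of them on EOM 1, whose median signal was also the highest. On EOM 1 these were Aqp3 1422007_at at 12.2, Aqp4 1447745_at at 148.8, Aqp4 1434449_at at 61.3, Aqp5 at 56.5, Aqp7 1418849_x_at at 68.5, Aqp9 1421605_a_at at 46.6, Aqp11 1447606_x_at at 126.3 and Aqp11 1429254_at at 90.1. On TA 3 they were Aqp4 1447745_at at 97.7 and Aqp5 at 28.6, and on TA 5 Aqp9 1421605_a_at at 58.4. The remaining ones were Aqp8 at 83.4 on EOM 2 and Aqp9 1424011_at at 29.0 on EOM 6. Aqp1 and Aqp7 1418848_at had no such value in either group.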

How the results depend on the processing

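Aqp1 kept its direction and its call in all 24 alternatives run (log2 fold change -5.33 to -4.82), and Aqp7 1418848_at in all 23 (-2.69 to -0.99, adjusted p 0.00218 to 0.0317). Aqp7 1418849_x_at passed in 6 of 23 and Aqp9 1424011_at in 7 of 22. The number of aquaporin probe sets lower in EOM was 3, between 2 and 4 with 1 array left out, and 1 with a 60% level filter, which left 2 of the 17 to test. No alternative gave a higher one. Over all probe sets, array weights gave 2734 lower and 2304 higher, and leaving out EOM 1, TA 3 and TA 5 gave 2249 lower and 2017 higher. With 1 array left out the numbers lay between 893 and 1939 lower and between 460 and 1847 higher, the extremes of the latter being without EOM 2 and without EOM 1, and 475 without EOM 0. Aqp1 relative to the endothelial markers lay between -2.38 and -1.77, and relative to the pericyte and smooth muscle markers between -3.50 and -2.76, past the threshold each time. Each leave-one-out p was 0.00216 (exact permutation test), the smallest possible, so it says only that the groups stayed apart. Centring on the array median cancels in both differences and could not change them. With the replicate number as a block (exact sign flips of paired differences) these were -2.02 and -3.08, each at p = 0.0313, the smallest 6 pairs allow. The block ended the Aqp9 call (adjusted p = 0.139 fixed, 0.0648 random) and changed no other aquaporin call.

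Of members that were not called, the sign turned as follows, on the log2 scale, and the cause was not tested. Centring on the array median gave Aqp3 1422007_at 0.018 and Aqp8 0.011. Array weights gave Aqp4 1434449_at -0.036, Aqp8 0.534 and Aqp11 1455846_at 0.043. An added constant of 1 gave Aqp8 0.053, the Gapdh ratio as a covariate gave it 0.0093, and leaving out the 3 arrays gave it 0.76 and Aqp11 1455846_at 0.15. With 1 array left out, Aqp3 1422008_a_at lay between -0.0090 and 0.14, Aqp4 1447745_at between -0.23 and 0.45, Aqp4 1434449_at between -0.084 and 0.39, Aqp8 between -0.32 and 0.28, Aqp9 1421605_a_at between -0.12 and 0.43, and Aqp11 1429254_at between -0.30 and 0.26. These probe sets lie near or below the array median, where 6 arrays a group leave wide intervals.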
